A study of Mus musculus with 23 samples.

Results

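The genes described here are 10 genes of the endoplasmic reticulum (ER) stress response, Hspa5, Hsp90b1, Pdia4, Calr, Sdf2l1, Creld2, Manf, Atf4, Xbp1 and Ddit3, in the mouse hippocampus. They were listed by name as well-known genes of this response, with no threshold on their values but with earlier results of these data known, and they are 10 of the 19733 genes in the table. All 10 reached the mean of 0.1 FPKM required for testing, as did 15986 genes in all. FPKM values count fragments relative to transcript length and library size. Hippocampal RNA was sequenced from 23 male C57BL/6J mice, labelled wild type (WT), which were 6 weeks old when acquired. The Ctrl group (9 mice) received an AIN93M control liquid diet for 16 weeks and was gavaged daily with the vehicle CMC-Na (sodium carboxymethyl cellulose). The EtOH group (7 mice) received an ethanol liquid diet for the same time and the same vehicle. The EtOH-UA group (7 mice) received the ethanol diet and urolithin A (UA), a gut microbial product of dietary ellagitannins, at 200 mg/kg/day in this vehicle. A week of behavioral tests preceded sampling in each group, and there was no group given UA without ethanol. Hippocampal tissue was sequenced in bulk, so a change in the share of a cell type and a change in RNA per cell cannot be told apart.

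The ER folds and quality-controls proteins of the membrane and the secretory pathway. When unfolded proteins accumulate, 3 sensors in its membrane, encoded by Ern1 (IRE1), Eif2ak3 (PERK) and Atf6, start the unfolded protein response. IRE1 splices the mRNA of Xbp1, PERK lowers general translation while translation of Atf4 increases, and ATF6 is cut in the Golgi into a transcription factor. XBP1 and ATF6 drive genes of chaperones and folding enzymes, and ATF4 drives amino acid metabolism genes and Ddit3. Ethanol has been studied as a source of ER stress in liver and brain, and the comparisons ask whether the mRNA of these genes differed with the ethanol diet and with UA.

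The promoters of several chaperone genes carry the ER stress element, CCAAT and CCACG separated by 9 bases, which is bound by NF-Y and, under stress, by ATF6. It was searched on both strands in the 250 bases before the transcription start in the RefSeq promoters of assembly GRCm38.p6, where 9 of the 10 genes were found and Manf was not. The element was present in 4 of these 9 genes, Hspa5, Hsp90b1, Creld2 and Calr, and in 37 of all 32851 promoters (0.113%). These windows are shown because few promoters hold the element. The 250 bases of Pdia4, Ddit3, Atf4, Xbp1 and Sdf2l1 did not hold the whole element. Each is read 5′ to 3′ on the strand of the gene, with 20 bases on either side of the element and the CCAAT and CCACG parts, or their reverse complements, in capitals. A match is a description of the sequence and not a measured binding site.
Hspa5, 65 to 47 bases before the start, chr2:34772005-34772063, plus strand: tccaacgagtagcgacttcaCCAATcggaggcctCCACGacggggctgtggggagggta
Hsp90b1, 212 to 194 bases before the start, chr10:86705618-86705676, minus strand: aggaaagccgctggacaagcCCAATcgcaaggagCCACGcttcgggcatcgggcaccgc
Hsp90b1, 107 to 89 bases before the start, chr10:86705513-86705571, minus strand: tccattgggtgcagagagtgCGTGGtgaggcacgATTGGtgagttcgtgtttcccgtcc
Creld2, 126 to 108 bases before the start, chr15:88819500-88819558, plus strand: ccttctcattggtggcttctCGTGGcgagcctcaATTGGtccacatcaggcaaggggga
Calr, 162 to 144 bases before the start, chr8:84847055-84847113, minus strand: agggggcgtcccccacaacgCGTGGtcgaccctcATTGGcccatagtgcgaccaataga
Pdia4 held the element without its last base, a form chosen after its sequence was seen, which 105 promoters (0.32%) held in the short or the whole form.
Pdia4, 107 to 90 bases before the start, chr6:47813582-47813639, minus strand: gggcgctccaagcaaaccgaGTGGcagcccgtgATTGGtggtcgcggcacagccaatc
Among the other pathway lists used below, the whole element was found in Canx, Dnajc3, Ero1b and Pdia6 of the folding list, of which 17 genes had a promoter in the table, and in Derl3 and Syvn1 of the degradation list, of which 17 genes had one.

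The read depth was estimated from the even steps between low FPKM values: in 22 genes, 1 FPKM was worth a median of 16.6 fragments on a 1 kb transcript (quartiles 15 and 16.9). By this estimate a library held from 79.3 fragments of Sdf2l1 (counting error 11.2%) to about 6230 fragments of Hsp90b1 (1.27%). Summed FPKM was between 327896 and 366930 in 21 of the 23 mice, and a pair of EtOH-UA mice stood apart with 404609 and 379518. These had the most negative slopes of log2 level, relative to the mean of each gene, on the log2 of transcript length, -0.25 and -0.15, against -0.11 to 0.089 in the others, so that short transcripts were relatively high in them. The main comparisons and correlations are also given without this pair. The pair was left out of the EtOH-UA group alone, which lowers this group for genes that follow summed FPKM. A difference seen only without the pair is therefore not read as an effect of UA or of the diet. Excitatory neuron markers (10 genes, led by Camk2a and Slc17a7) summed to between 1412 and 1772 FPKM in every mouse. The choroid plexus list (14 genes, led by Ttr, the thyroid hormone carrier of this tissue) ranged from 9.93 to 3018 FPKM for Ctrl, from 74.1 to 5851 for EtOH and from 18.4 to 7907 for EtOH-UA mice. The pair held both ends of the EtOH-UA range, with 7907 in the mouse of highest summed FPKM and 18.4 in the second. The mouse of highest summed FPKM also had the highest sums of the 23 mice for endothelium (186.6), blood (276), astrocytes (811.2) and microglia (240.1), and the second had 175.8, 175.2, 810.4 and 202.1. Apart from a choroid plexus covariate used below, the part of these in the results was not tested. Summed markers of the other lists ranged from 14.6 to 42.9 FPKM for ependyma, 190 to 928 for meninges and fibroblasts, 141 to 187 for endothelium, 29.3 to 276 for blood, 650 to 811 for astrocytes, 1086 to 2448 for oligodendrocytes and 154 to 240.1 for microglia.

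The 10 genes differed widely in level. Over the 23 mice, the mean level was 171 ± 20 FPKM (SD) for Calr, 133 ± 13.9 for Hsp90b1, 85.4 ± 11.4 for Hspa5, 58.7 ± 6.53 for Atf4, 41 ± 9.93 for Manf, 24.1 ± 2.76 for Xbp1, 17.9 ± 2.31 for Ddit3, 14.2 ± 1.98 for Pdia4, 6.77 ± 0.992 for Creld2 and 4.3 ± 1.12 for Sdf2l1. The abundant lectin and heat shock protein chaperones therefore stood above the transcription factors, and the small ER-resident proteins Creld2 and Sdf2l1 were lowest. This order held in all 23 mice for 7 of the 9 neighboring pairs. Atf4 was above Manf in 22 mice and Ddit3 above Pdia4 in 21, so the order within these pairs depended on the mouse.

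Hspa5 (chr2:34772090-34776529, GRCm38) encodes BiP, the ER member of the Hsp70 family, which binds unfolded proteins and holds the stress sensors inactive. Its level had a lowest value of 72.3, a median of 84.6 and a highest value of 93.1 FPKM in Ctrl mice, with 76, 82.3 and 92 in EtOH and 73.1, 90.5 and 127.69 in EtOH-UA mice. All 3 groups overlapped, and the highest EtOH-UA mouse lay apart from the other 6. The log2 fold change (on the log2(FPKM + 0.1) scale, as are all fold changes here, which understates changes of low genes) was 0.019 ± 0.084 (SE) for EtOH against Ctrl, with exact permutation p = 0.747. For EtOH-UA against EtOH it was 0.11 ± 0.089 (exact permutation p = 0.384). Hsp90b1 (chr10:86690841-86705444) encodes GRP94, the Hsp90 of the ER. It ranged from 118 to 138 FPKM in Ctrl (median 129), from 121 to 154 in EtOH (median 128) and from 116 to 184.5 in EtOH-UA (median 132). Its medians lay within a few FPKM of each other, and its log2 fold changes, 0.027 ± 0.070 for EtOH against Ctrl and 0.043 ± 0.074 for EtOH-UA against EtOH, were smaller than their errors.

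Pdia4 (chr6:47796141-47813512) encodes the disulfide isomerase ERp72. The lowest, median and highest values were 12, 13.5 and 15.6 FPKM for Ctrl, 12.5, 13.7 and 17 for EtOH and 13.1, 13.9 and 21 for EtOH-UA mice. Of the 10 genes it had the largest positive log2 fold change for EtOH against Ctrl, 0.075 ± 0.086 (exact permutation p = 0.328), which did not exceed its error. For EtOH-UA against Ctrl the value was 0.15 ± 0.086 (exact permutation p = 0.116). Across mice, Pdia4 followed the choroid plexus score, with Pearson's r = 0.61 and Spearman's rho = 0.57 for deviations from group means (permutation p = 0.0025 and 0.0085, adjusted p of r 0.011 over 120 relations). Without the 2 mice farthest from the median of this score r was 0.65, and without the pair of EtOH-UA mice it was 0.67. With the choroid plexus score as a covariate the log2 fold change of Pdia4 for EtOH against Ctrl was -0.014. Its part in the difference was not otherwise tested. Calr (chr8:84842088-84846931) encodes calreticulin, a calcium-binding chaperone of glycoproteins. Its level ranged from 151 to 182 FPKM in Ctrl (median 165), from 148 to 194 in EtOH (median 168) and from 159 to 238.84 in EtOH-UA (median 165). The medians were thus nearly equal, while the highest EtOH-UA values were 238.84 and 203.1 FPKM in the pair of mice. Calr had log2 fold changes of 0.023 ± 0.077 for EtOH against Ctrl and 0.086 ± 0.082 for EtOH-UA against EtOH (exact permutation p = 0.696 and 0.42).

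**Figure D1:**
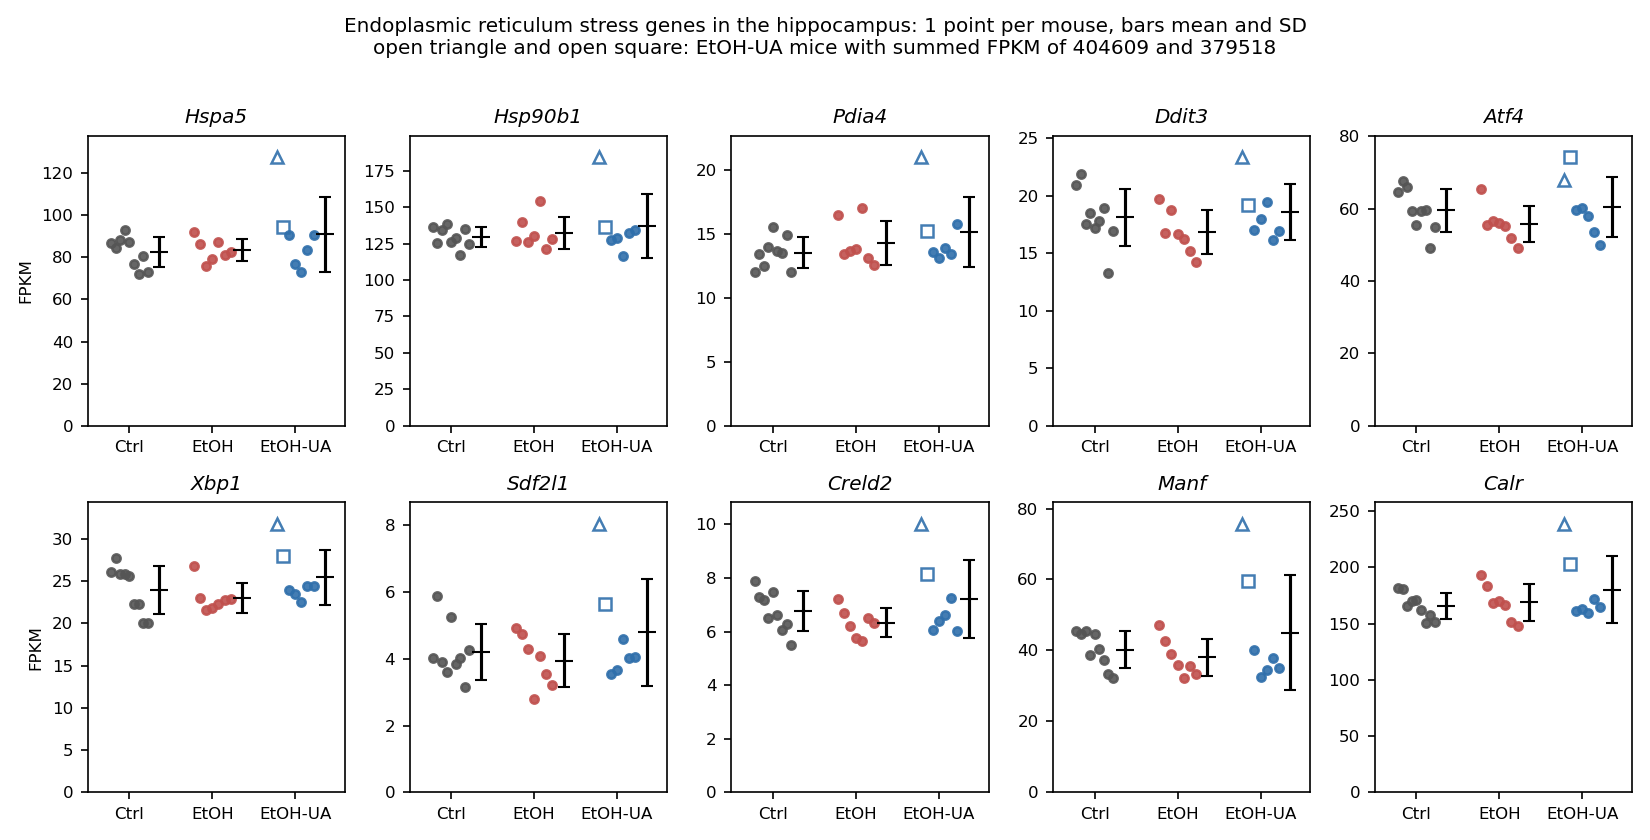
FPKM of the 10 genes in each mouse (vertical axes from 0), by group, with mice in order of falling summed FPKM within a group and bars for mean and SD (n = 9, 7 and 7). The open triangle, the EtOH-UA mouse whose summed FPKM was 404609, is the highest of the 23 mice in 9 panels. The open square, the EtOH-UA mouse with 379518, also lies above the remaining mice for Hspa5, Atf4, Xbp1, Creld2, Manf and Calr. The remaining mice of the 3 groups overlap in every panel.

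Sdf2l1 (chr16:17130138-17132383), a soluble ER protein that works in the chaperone cycle of BiP, was the lowest and the most variable of the genes. Its values ran from 3.14 to 5.88 FPKM in Ctrl (median 4.01), from 2.79 to 4.92 in EtOH (median 4.09) and from 3.54 to 8.04 in EtOH-UA (median 4.05). The 3 medians differed by less than 0.1 FPKM. Its log2 fold change for EtOH-UA against EtOH, 0.25 ± 0.16, was the largest of the 10 (exact permutation p = 0.231), and 3 of 7 EtOH-UA mice were above the EtOH median. Without the pair it was 0.032 ± 0.14. Creld2 (chr15:88819646-88826681) encodes a small ER protein that is induced by ER stress. It had a lowest, median and highest level of 5.51, 6.62 and 7.87 FPKM for Ctrl, 5.64, 6.32 and 7.22 for EtOH and 6.01, 6.62 and 10.02 for EtOH-UA mice. The Ctrl and EtOH-UA medians were equal at 6.62, with log2 fold changes of -0.088 ± 0.093 for EtOH against Ctrl and 0.17 ± 0.098 for EtOH-UA against EtOH (exact permutation p = 0.246 and 0.159). Without the pair the second was 0.030 ± 0.081.

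Manf (chr9:106888753-106891938) encodes mesencephalic astrocyte-derived neurotrophic factor, an ER-resident protein that binds BiP, can be secreted and protects neurons. In Ctrl mice it ranged from 32.3 to 45.6 FPKM (median 40.5) and in EtOH mice from 32.2 to 47.2 (median 36). In the EtOH-UA group 5 mice had 32.57 to 40.1 FPKM, and the pair had 75.71 and 59.65. The 5 mice lay within the range of the Ctrl and EtOH groups, and the pair lay above all other 21 mice. The group means of 40.3 ± 5.22, 38 ± 5.35 and 45.1 ± 16.3 FPKM (SD) thus put the EtOH-UA group highest, while its median of 37.9 was between those of the EtOH and Ctrl groups. For EtOH-UA against EtOH the log2 fold change was 0.19 ± 0.15 (exact permutation p = 0.371), and without the pair it was -0.071 ± 0.098.

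Of the transcription factors, Atf4 (chr15:80255184-80257545) is the effector of PERK and of the other kinases of the integrated stress response. Its lowest, median and highest levels were 49.1, 59.4 and 67.7 FPKM for Ctrl, 49.3, 55.6 and 65.4 for EtOH and 49.9, 59.6 and 74.33 for EtOH-UA mice. A single EtOH mouse was above the Ctrl median, and the log2 fold change for EtOH against Ctrl was -0.095 ± 0.076 (exact permutation p = 0.189). For EtOH-UA against EtOH it was 0.11 ± 0.081 (exact permutation p = 0.226), and 0.015 ± 0.075 without the pair. Xbp1 (chr11:5520641-5525993) is the target of IRE1 splicing, and a gene-level FPKM does not separate its spliced from its unspliced form. It ranged from 20.1 to 27.8 FPKM in Ctrl (median 25.6), from 21.6 to 26.8 in EtOH (median 22.8) and from 22.5 to 31.8 in EtOH-UA (median 24.4). Xbp1 had the smallest p of the 10 genes in any of the 3 comparisons, for EtOH-UA against EtOH. There its log2 fold change was 0.14 ± 0.081 (95% interval -0.026 to 0.31), 6 of 7 EtOH-UA mice were above the EtOH median, and the p was 0.0941 with limma, 0.0915 in the exact permutation test and 0.9 after adjustment over all genes. Without the pair the value was 0.047 ± 0.075. Ddit3 (chr10:127290793-127296291), which encodes the pro-apoptotic factor CHOP, ranged from 13.3 to 21.9 FPKM in Ctrl (median 17.8), from 14.2 to 19.7 in EtOH (median 16.7) and from 16.2 to 23.35 in EtOH-UA (median 18). It had log2 fold changes of -0.10 ± 0.089 for EtOH against Ctrl and 0.14 ± 0.094 for EtOH-UA against EtOH (exact permutation p = 0.29 and 0.145), with 6 of 7 EtOH-UA mice above the EtOH median.

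For the ethanol diet, the comparison of the EtOH with the Ctrl group, 0 of the 10 genes passed an adjusted p of 0.05 in limma, as did 0 of all 15986 genes (0% called, smallest adjusted p 0.310). None of the 10 had an unadjusted p under 0.05 either, while 1.95% of all genes were higher and 1.1% lower at this level. Hspa5, Hsp90b1, Pdia4 and Calr, the chaperones and the disulfide isomerase, had small positive differences. The 3 transcription factors and Sdf2l1, Creld2 and Manf had small negative differences. The log2 fold changes ran from -0.10 (Ddit3) to 0.075 (Pdia4), with a median of -0.068 over the 10 genes and -0.003 over all genes tested. The 95% intervals of the 10 genes lay between -0.42 (Sdf2l1) and 0.25 (Pdia4), and the narrowest interval was that of Hsp90b1 (-0.12 to 0.17). With the choroid plexus score as a covariate, Hspa5 (-0.017), Hsp90b1 (-0.014) and Pdia4 (-0.014) turned negative, and the signs of the other genes did not change.

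For UA under the ethanol diet, the comparison of the EtOH-UA with the EtOH group, all 10 genes had positive log2 fold changes, from 0.043 (Hsp90b1) to 0.25 (Sdf2l1). Their median was 0.13, beside 0.003 over all genes tested, of which 51.2% were positive. No single gene of the 10 passed an adjusted p of 0.05 (0% of all genes called, smallest adjusted p 0.507) or an unadjusted p of 0.05, which 1.83% of all genes passed as higher and 1.45% as lower. Without the pair of EtOH-UA mice of highest summed FPKM, 5 of the 10 genes were positive and the median was 0.002. Hspa5, Hsp90b1, Pdia4, Manf and Calr were then negative, and Ddit3, Atf4, Xbp1, Sdf2l1 and Creld2 positive, with the largest at 0.063 ± 0.095 (Ddit3). In the EtOH-UA against the Ctrl group, all 10 genes were again positive, from 0.018 (Atf4) to 0.15 (Sdf2l1), with a median of 0.095. Here 0% of all genes passed an adjusted p of 0.05 (smallest 0.297), 1.56% were higher and 1.52% lower at an unadjusted p under 0.05, and 0 of the 10 were among these. Without the pair, 2 of the 10 (Hspa5 and Pdia4) were positive and the median was -0.030. The comparisons share the EtOH, the EtOH-UA or the Ctrl mice and are not independent of each other. For the genes with the ER stress element in the promoter, the log2 fold changes of EtOH-UA against EtOH were 0.11 for Hspa5, 0.043 for Hsp90b1, 0.17 for Creld2 and 0.086 for Calr, and for the 5 genes searched without a whole element they ran from 0.074 (Pdia4) to 0.25 (Sdf2l1), with overlap of the 2 ranges.

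**Figure D2:**
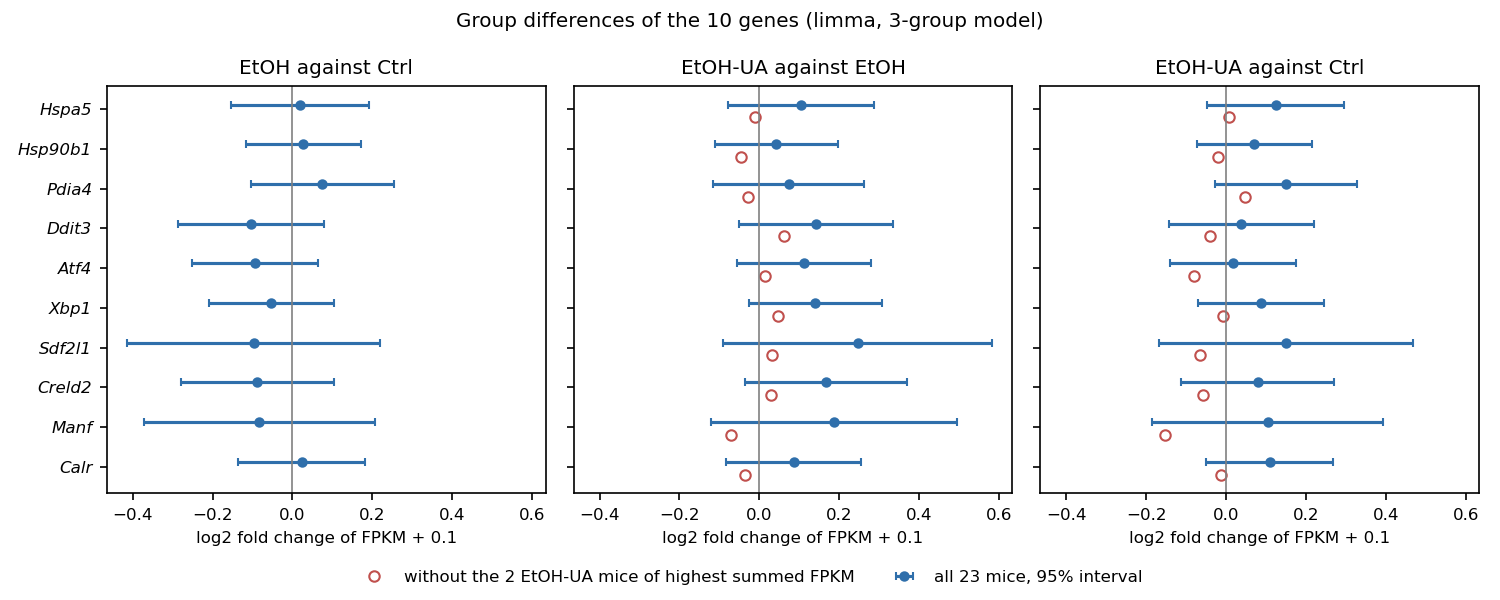
Log2 fold change of each gene (horizontal axes) in the 3 comparisons, with filled points and 95% intervals for all 23 mice and open circles for the fit without the pair of EtOH-UA mice of highest summed FPKM. All filled points of the EtOH-UA comparisons lie right of 0 with intervals that include 0, and the open circles lie on both sides of 0, with medians of 0.002 and -0.030.

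The EtOH-UA mouse whose summed FPKM was 404609 was the highest of all 23 mice for 9 of the 10 genes and the second for Atf4. For Sdf2l1 and Manf its level was 2 times the median of the other 21 mice, for the other chaperones and folding genes 1.43 to 1.54 times, and for Ddit3, Xbp1 and Atf4 1.36, 1.38 and 1.2 times. The mouse with 379518 was the highest for Atf4 and the second for 5 genes. It was above all of the other 21 for Hspa5, Atf4, Xbp1, Creld2, Manf and Calr, and within their range for Hsp90b1, Pdia4, Ddit3 and Sdf2l1. In the EtOH group the mouse of highest summed FPKM, 366930, was likewise the highest of its group for 8 of the 10 genes. Across the 23 mice, deviations from the group means followed summed FPKM, with r from 0.53 (Pdia4) to 0.95 (Manf). The relation passed an adjusted p of 0.05 (100000 permutations within groups, 120 relations) for 8 of 10 genes by r and for 8 by rho. For Manf, r was 0.95 and rho 0.93 (adjusted p of r 0.00013). Its r was 0.91 without the 2 mice farthest from the median of summed FPKM and 0.85 without the pair. Atf4 gave r = 0.81 and rho = 0.82, with r = 0.84 and 0.81 in these smaller sets. The relation of Hsp90b1 rested on few mice: its r of 0.59 (rho 0.47, adjusted p of r 0.08) was 0.36 without the 2 farthest mice and 0.08 without the pair. For Pdia4, r was 0.53 (rho 0.43, adjusted p of r 0.1), and it was 0.06 without the 2 farthest mice. Relations with the transcript length slope were nearly the mirror image, from -0.49 (Pdia4) to -0.95 (Manf), again past the threshold for 8 genes. With this slope as a covariate, a setting added after the data were seen, the median log2 fold change of the 10 genes was 0.022 for EtOH-UA against EtOH and 0.007 for EtOH against Ctrl.

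**Figure D3:**
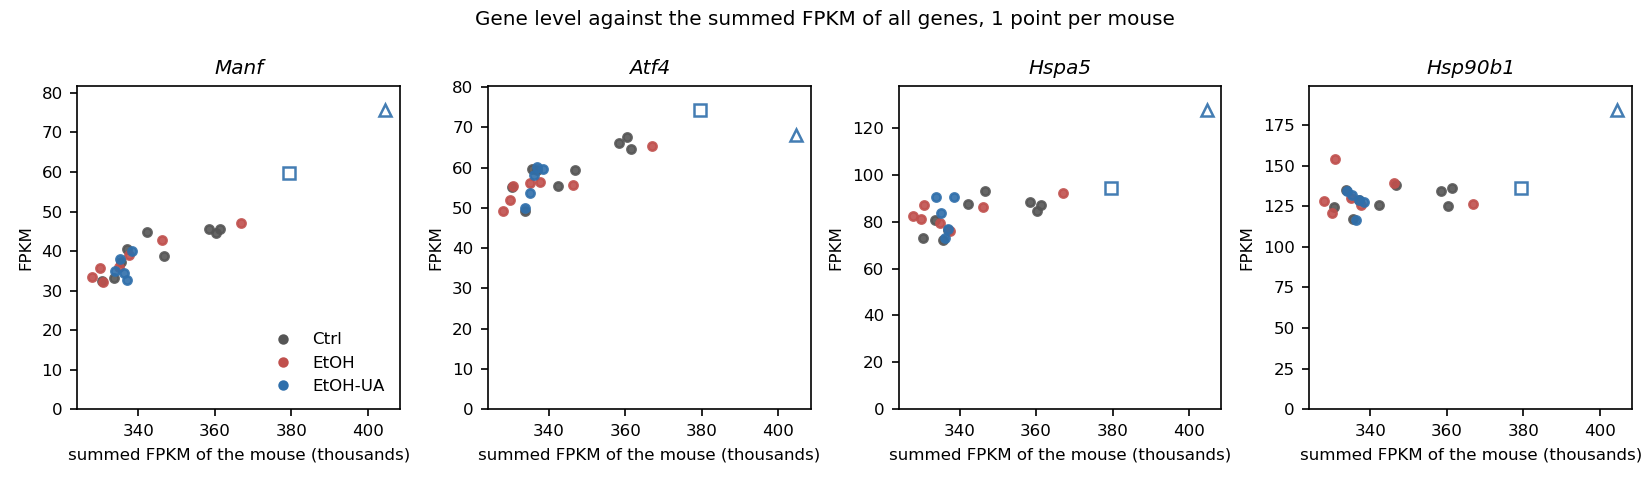
FPKM of Manf, Atf4, Hspa5 and Hsp90b1 (vertical axes from 0) against the summed FPKM of all genes in each of the 23 mice (horizontal axes, scaled as labelled and not from 0), with the pair of EtOH-UA mice as an open triangle and an open square. Manf and Atf4 are higher in mice of higher summed FPKM in each group, whereas Hsp90b1 is flat apart from the mouse with 404609.

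Within groups the 10 genes varied together. The SD of log2 level within groups was 0.325 for Sdf2l1 and 0.301 for Manf, higher than in 91.9% and 89.4% of the 12904 genes that averaged 1 FPKM or more. It was between 0.140 (Hsp90b1) and 0.189 (Creld2) for the other 8, with a median of 0.164 for those 12904 genes. Without the pair of EtOH-UA mice it was 0.255 for Sdf2l1 and 0.180 for Manf. All 45 pairs of the 10 genes had a positive r, with a median of 0.68 and a range from 0.21 to 0.91, beside a median of 0.007 over all pairs of genes with at least 1 FPKM. The latter is a median of signed r, in which positive and negative values offset each other. It does not measure how strongly genes vary together. Of the 45 pairs, 35 passed an adjusted p of 0.05 by r and 27 by rho. Without the pair of mice, 37 of 45 were positive and the median was 0.43. The strongest relations were those of Manf with Calr (r = 0.91, rho = 0.82) and of Creld2 with Manf (r = 0.89, rho = 0.84; adjusted p of r 0.00015 and 0.00011, permutation test). Each had r = 0.82 without the 2 mice farthest from the median of the gene named first.

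The genes fell into loose sets by these correlations. Ddit3 and Atf4, the CHOP and ATF4 genes of the PERK branch, had r = 0.80 and rho = 0.85 (adjusted p of r 0.00011, permutation test), and r was 0.84 without the pair of mice. Hspa5 and Hsp90b1, the BiP and GRP94 genes, had r = 0.81 and rho = 0.67 (adjusted p of r 0.0011), with 0.57 without the pair. The 6 pairs of Ddit3 or Atf4 with Hspa5, Hsp90b1 or Pdia4 had r from 0.21 to 0.42, none of them past the threshold, and from -0.21 to 0.19 without the pair of mice. Sdf2l1, Creld2, Manf and Calr correlated among themselves in all 6 pairs (r from 0.71 to 0.91, and from 0.45 to 0.78 without the pair). Members of this set correlated with the others as well, such as Hspa5 with Calr and Manf (r = 0.80 and 0.78, and 0.57 and 0.54 without the pair) and Atf4 with Manf (r = 0.74 and 0.66). Xbp1 correlated with Hspa5 (r = 0.82, rho = 0.87, adjusted p of r 0.00015) and with Creld2 and Manf (r = 0.84 each). The sets were described after the correlations were seen, and the difference between them was not tested. Without the pair, r with summed FPKM was 0.68 for Ddit3 and 0.81 for Atf4. It was 0.71 for Creld2, 0.85 for Manf, 0.84 for Calr, 0.81 for Xbp1, 0.55 for Hspa5 and 0.49 for Sdf2l1. For Hsp90b1 and Pdia4 it was 0.08 and 0.07, and the part of summed FPKM in the sets was not tested. Of the marker lists, the microglia score passed the adjusted threshold by r with Ddit3, Atf4, Calr and Creld2, and by rho with the first 3. It moved with Ddit3 (r = 0.71, rho = 0.79, adjusted p of r 0.002) and Atf4 (r = 0.67, rho = 0.76, adjusted p of r 0.0048), for both with r = 0.64 without the pair of mice. Calr gave r = 0.68 and rho = 0.61 (adjusted p of r 0.0046, r = 0.61 without the pair) and Creld2 r = 0.55 and rho = 0.46 (adjusted p of r 0.038, r = 0.39 without the pair). With the other 6 genes r was between 0.25 (Pdia4) and 0.53 (Manf), and did not pass the threshold. The microglia score was itself highest, within each group, for the mouse of highest summed FPKM: 1.27 (Ctrl), 0.92 (EtOH) and 1.16 (EtOH-UA). Ddit3, Atf4, Calr and Creld2 also followed summed FPKM, and its part in their relations with this score was not tested. The ependyma score passed by r and rho with Atf4, in the negative direction (r = -0.59, adjusted p of r 0.028, r = -0.58 without the pair). By r alone, the endothelium score passed with Pdia4 (r = 0.51, adjusted p of r 0.043, r = 0.44 without the pair). The blood score did so with Ddit3 and Atf4 (r = 0.54 and 0.52, adjusted p of r 0.031 and 0.039). The choroid plexus score passed with Pdia4, as given above. Apart from the choroid plexus covariate given above, the part of these cell types in the levels was not tested. The excitatory neuron score did not pass the threshold with any of the 10 genes (r from -0.46 to -0.03).

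**Figure D4:**
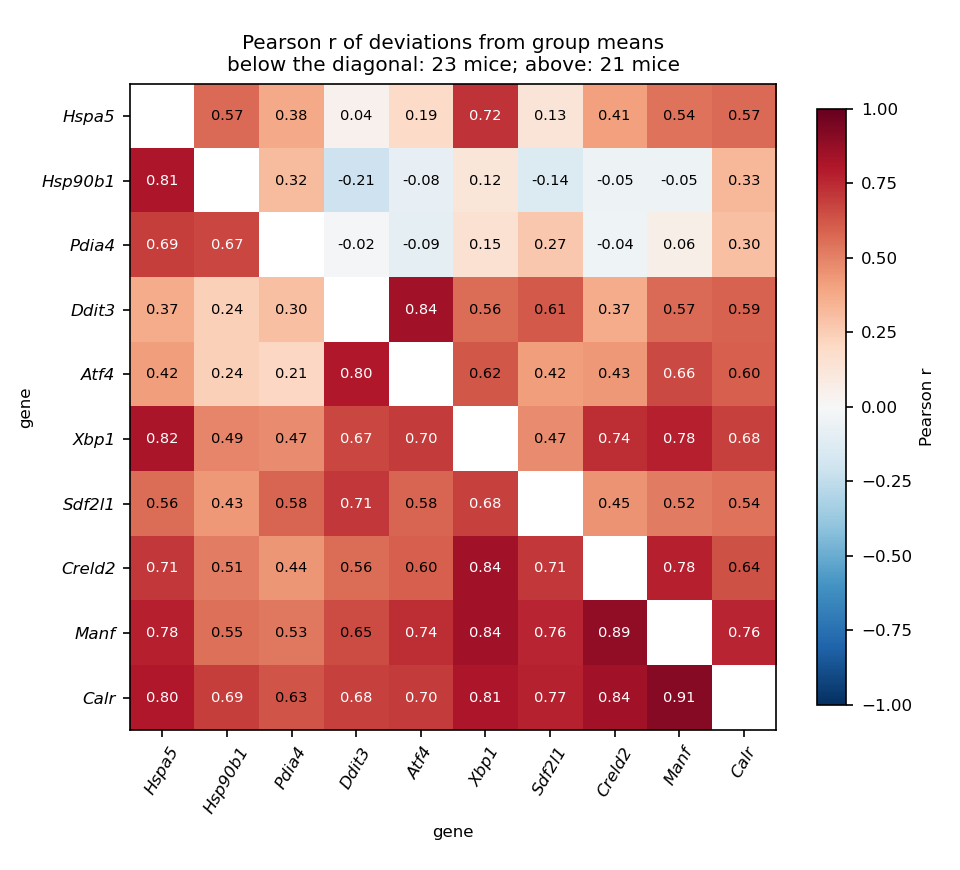
Pearson's r of deviations from group means for each pair of the 10 genes (color from -1 to 1), below the diagonal over 23 mice and above it over 21 mice without the pair of EtOH-UA mice. Ddit3 with Atf4 stays at 0.84 above the diagonal, and their values with Hsp90b1 and Pdia4 lie between -0.21 and -0.02 there.

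The pattern of the 10 genes across mice was common to many other genes. Of 12894 other genes that averaged 1 FPKM or more, 1317 (10.2%) had an r of at least 0.8 with the mean standardized deviation of the 10 genes, and 561 (4.35%) had an r of -0.8 or lower, over 23 mice. Without the pair of mice these numbers were 243 and 39. The genes most like the 10 were Etfb (r = 0.96), a subunit of the electron transfer flavoprotein, and Arl3, Clta, Mrpl13 and Psenen (r = 0.95 each). The most opposite genes were Smad9 and Stox2 (r = -0.95 each) and Kmt2e (r = -0.94). The other ER genes lay on both sides. In the folding list 6 of 18 genes had an r of at least 0.8, with a median of 0.49 and a range from -0.68 (Ero1a) to 0.95 (Pdia6, 8th of 12894), and without the pair 2 of 18 and a median of 0.19. In the degradation and translocon list 7 of 21 reached 0.8, with a median of 0.50 and a range from -0.85 (Sel1l) to 0.92 (Selenos), and without the pair 2 of 21 and a median of 0.35. The heat shock list had 6 of 17 at this level (median 0.74), or 2 of 17 (median 0.44) without the pair. The integrated stress response list had 4 of 28 (median 0.43), or 0 of 28 (median 0.39). Pdia6 and the cytosolic chaperone gene Hspa8, which was 9th (r = 0.94), had 0.86 and 0.87 without the pair. These values describe 23 libraries that share the range of summed FPKM described above, and no p is given for them.

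Among the sensors of the response, Ern1 (IRE1) had r = -0.77 with the mean of the 10 genes, Atf6 -0.52 and Eif2ak3 (PERK) -0.35, and Atf6b, a relative of Atf6, had 0.73. Without the pair of mice these were -0.38, -0.36, -0.18 and 0.67. None of the 6 genes of sensors and their proteases (Ern1, Eif2ak3, Atf6, Atf6b, Mbtps1 and Mbtps2) passed an adjusted or an unadjusted p of 0.05 in any comparison. Their median log2 fold change was 0.002 for EtOH against Ctrl and -0.011 for EtOH-UA against EtOH, with 3 of 6 positive in each. Without the pair the second median was 0.041, with 5 of 6 positive. Atf6b, the most abundant, had 23.9 ± 1.69, 23.1 ± 3.18 and 25.2 ± 2.65 FPKM (SD) in Ctrl, EtOH and EtOH-UA mice, Mbtps1 had 23.1 ± 0.764, 22.8 ± 0.815 and 22.9 ± 1.23, and Atf6 had 13.9 ± 1.73, 14.1 ± 0.989 and 13.8 ± 1.78.

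Other genes of ER folding and degradation likewise gave no call. In the folding list, 0 of 19 genes passed an adjusted or an unadjusted p of 0.05 in any comparison. For EtOH against Ctrl 15 of 19 were positive with a median log2 fold change of 0.016, and for EtOH-UA against EtOH 11 of 19 with a median of 0.034, or 5 of 19 and -0.028 without the pair of mice. A single gene of the list, Ppib, had an unadjusted p under 0.05 without the pair, for EtOH-UA against Ctrl (log2 fold change -0.13 ± 0.060). Its most abundant genes, the lectin chaperone Canx (92.1 ± 5.11, 92.2 ± 5.07 and 94.4 ± 6.27 FPKM (SD) in Ctrl, EtOH and EtOH-UA mice), Ppib (78.8 ± 6.76, 75.4 ± 6.24 and 80.3 ± 16.3) and the isomerase gene Pdia3 (72.5 ± 5.25, 73.1 ± 5.15 and 77.4 ± 13.4), had overlapping groups. In the list of ER-associated degradation and the translocon, 0 of 22 genes passed either threshold in any comparison. The medians were -0.019 for EtOH against Ctrl and 0.075 for EtOH-UA against EtOH, with 10 and 15 of 22 positive, and without the pair -0.003 in the second. Without the pair, Sec61b alone had an unadjusted p under 0.05, for EtOH-UA against Ctrl (log2 fold change -0.23 ± 0.083). Ssr3, Sec11c and Sec62, its most abundant genes, had 60.4 ± 6.35, 58.5 ± 6.46 and 47.1 ± 2.82 FPKM for Ctrl, 58.3 ± 2.97, 55.8 ± 4.69 and 47.8 ± 2.16 for EtOH and 60.4 ± 3.97, 62.2 ± 13.2 and 50.8 ± 5.69 for EtOH-UA mice.

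The integrated stress response list, the targets and kinases around ATF4, held the genes with the smallest p. Of its 32 genes 30 were tested, and 0 passed an adjusted p of 0.05 in any comparison. At an unadjusted p under 0.05, 1 was above and 4 were below the Ctrl level in EtOH mice (background 1.95% and 1.1%), and 4 were higher and 1 was lower in EtOH-UA than in EtOH mice (background 1.83% and 1.45%). Nupr1, a stress-induced transcriptional regulator, had 4.61 ± 0.728 FPKM (SD) for Ctrl, 3.51 ± 0.787 for EtOH and 4.61 ± 1.05 for EtOH-UA mice. Its log2 fold changes were -0.40 ± 0.13 for EtOH against Ctrl and 0.38 ± 0.14 for EtOH-UA against EtOH (exact permutation p = 0.00953 and 0.0396, adjusted p in limma 0.999 and 0.9). Chac1, a glutathione-degrading enzyme downstream of ATF4 and CHOP, had 2.79 ± 0.506, 2.22 ± 0.232 and 2.68 ± 0.387 FPKM, with log2 fold changes of -0.30 ± 0.11 and 0.25 ± 0.12 (exact permutation p = 0.0252 and 0.0198, adjusted p in limma 0.999 and 0.9). Trib3, a pseudokinase induced by CHOP, was below 0.4 FPKM in every mouse and rests on few fragments. Its group means were 0.268, 0.176 and 0.273 FPKM, with log2 fold changes of -0.42 ± 0.19 and 0.47 ± 0.20 (exact permutation p = 0.0642 and 0.0245, adjusted p in limma 0.999 and 0.9). Nupr1, Chac1 and Trib3 each had their lowest mean in the EtOH group. The comparisons share the EtOH mice, so the second difference does not repeat the first.

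Slc7a5, an amino acid transporter and target of ATF4, had 19.2 ± 1.33 FPKM (SD) for Ctrl, 17 ± 1.79 for EtOH and 17.9 ± 1.2 for EtOH-UA mice. Its log2 fold change for EtOH against Ctrl was -0.18 ± 0.059 (exact permutation p = 0.0152, adjusted p in limma 0.999). Eif2ak2 (PKR), a kinase activated by double-stranded RNA, went the other way, with 3.29 ± 0.356, 3.84 ± 0.6 and 3.08 ± 0.414 FPKM and log2 fold changes of 0.21 ± 0.095 and -0.31 ± 0.10 (exact permutation p = 0.0464 and 0.0227, adjusted p in limma 0.999 and 0.9). In EtOH-UA against EtOH, 0 of the 30 genes had an unadjusted p under 0.05 without the pair of mice, where the log2 fold changes were 0.27 for Nupr1, 0.15 for Chac1, 0.45 for Trib3 and -0.21 for Eif2ak2. Bbc3 (PUMA), a pro-apoptotic gene, was at 3.46 ± 0.475 in Ctrl and 2.94 ± 0.34 FPKM in EtOH-UA mice (log2 fold change -0.23 ± 0.097, exact permutation p = 0.0289, adjusted p in limma 0.999), the single gene of the list with an unadjusted p under 0.05 in EtOH-UA against Ctrl. Without the pair its value was -0.20, and the genes under 0.05 were Slc3a2 (-0.11 ± 0.052) and Slc7a5 (-0.15 ± 0.062). The most abundant genes of the list, Nars, Psat1 and Sars, had 101 ± 6.39, 48.4 ± 4.93 and 49.7 ± 4.84 FPKM for Ctrl, 95.9 ± 5.23, 47.8 ± 4.42 and 46.4 ± 5.15 for EtOH and 105 ± 15.7, 51.1 ± 5.15 and 50.7 ± 8.77 for EtOH-UA mice.

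Heat shock genes, which answer unfolded proteins outside the ER, were read beside the ER genes. Most of the list is cytosolic, while Hspd1 and Hspe1 encode mitochondrial chaperonins. Of 17 genes, 4 were positive for EtOH against Ctrl (median log2 fold change -0.042) and 15 for EtOH-UA against EtOH (median 0.062), and 0 passed an adjusted p of 0.05 in any comparison. Without the pair of mice 4 of 17 were positive in the second comparison, with a median of -0.046, and Hspa1b had an unadjusted p under 0.05 (log2 fold change -0.32 ± 0.12). At an unadjusted p under 0.05, a single gene, the co-chaperone Bag3, was above its Ctrl level in the EtOH-UA group (2.98 ± 0.248 against 2.66 ± 0.219 FPKM, log2 fold change 0.16 ± 0.074, exact permutation p = 0.0198, adjusted p in limma 0.999), beside the 1.56% of all genes given above. Without the pair, 4 of 17 genes were positive in this comparison, with a median of -0.072. There 5 of 17 genes were under 0.05 (all genes 2.95% higher and 3.18% lower). Bag3 was higher (0.20 ± 0.080), and Hspa1b (-0.36 ± 0.12), Hspd1 (-0.12 ± 0.054), Hspe1 (-0.24 ± 0.11) and Stip1 (-0.12 ± 0.050) were lower. However, the pair had the highest heat shock scores of all mice, 1.77 and 1.40, and the next was 0.51 in an EtOH mouse. Leaving it out of the EtOH-UA group alone lowers this group for genes that follow the score. The values without the pair therefore cannot decide whether the list was lower in EtOH-UA mice. Hsp90ab1, Hspa8 and Hsp90aa1, its most abundant genes, had 756 ± 39.1, 731 ± 37.6 and 456 ± 37.3 FPKM in Ctrl mice, 751 ± 69, 708 ± 60.6 and 457 ± 27.4 in EtOH mice and 777 ± 90.2, 755 ± 108 and 460 ± 54.7 in EtOH-UA mice. The heat shock score moved with the 10 ER stress genes across mice, with r from 0.56 (Pdia4) to 0.93 (Manf), past an adjusted p of 0.05 for 9 of 10 by r and for 9 by rho, and from 0.19 to 0.79 without the pair.

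**Figure D5:**
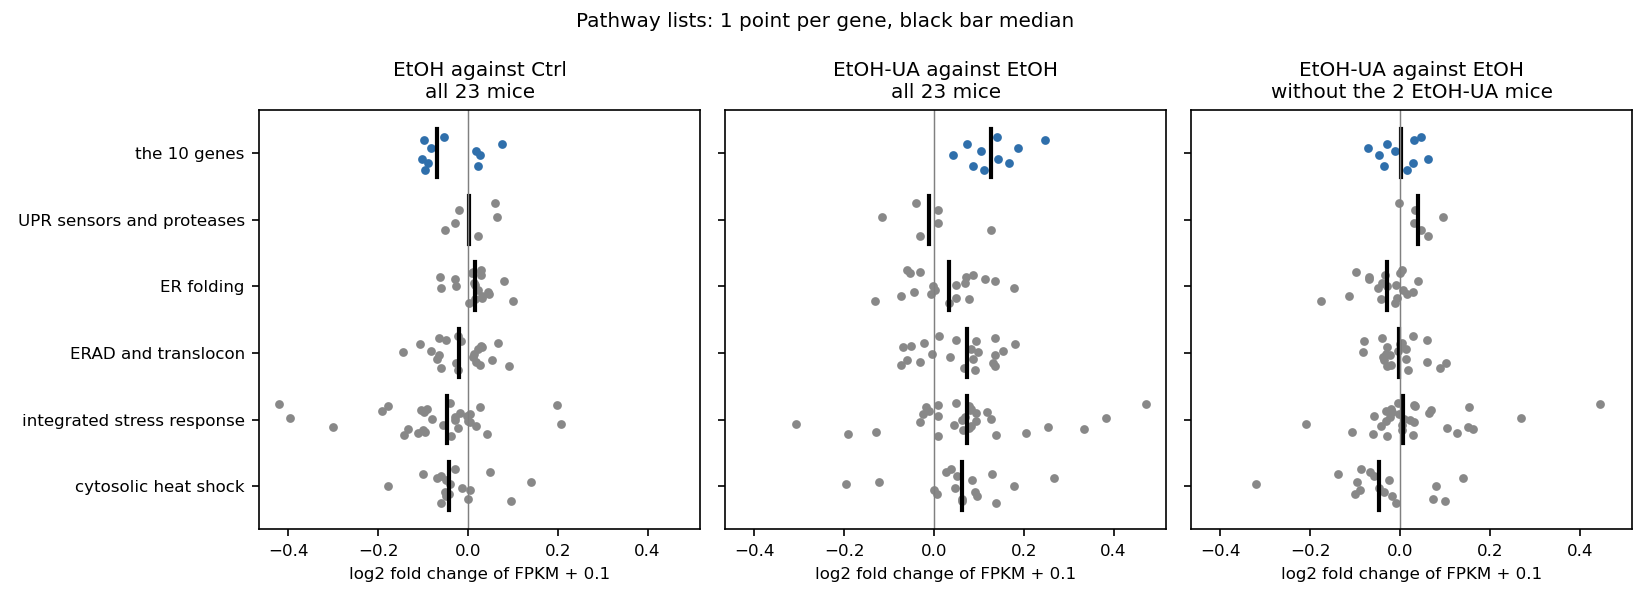
Log2 fold change (horizontal axes) of each tested gene in the lists, with black bars for the medians, for EtOH against Ctrl and for EtOH-UA against EtOH with all 23 mice and without the pair of EtOH-UA mice. The 10 ER stress genes lie between 0.043 and 0.25 for EtOH-UA against EtOH in all mice and around 0 without the pair, and the heat shock list moves from a median of 0.062 to -0.046.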

How the data were processed

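Hippocampal RNA of 23 mice was measured by RNA sequencing on MGI/BGI instruments. The deposited table holds FPKM made by the authors with RSEM after alignment to mm10 with Bowtie2. The submitters' processing notes list Bowtie2 2.2.5, RSEM 1.2.8, HISAT2 2.1.0, StringTie and DESeq. The methods name poly(A)+ RNA and the labels total RNA. FPKM are not counts, so log2(FPKM + 0.1) of the 15986 genes averaging 0.1 FPKM or more was fitted with limma 3.58.1 (R 4.3.3), 3 groups in a single model with an intensity trend, with Benjamini-Hochberg adjustment over every gene tested. An exact two-sided permutation test was added for the 10 genes and for the list genes named by smallest p over all mice or by abundance. It used 3432 splits (EtOH-UA against EtOH) or 11440 splits (comparisons with Ctrl). Correlations used deviations from group means and 100000 permutations within groups, adjusted over 45 pairs or 120 relations. Scores are mean z-scores of a list. Gene coordinates are from RefSeq (GRCm38). The named genes were all 10 members and, per list and comparison, up to 3 genes of smallest unadjusted p under 0.05 and the 3 most abundant, with the 5 genes most like the 10 and the 3 most opposite. The members and lists were chosen with earlier results of these data known. Columns were mapped to groups only, since they carry mouse numbers that the labels do not, and p-values measure the spread between mice. The limma fit alone was tested on simulated data, in which the noise of each gene was independent. Alternatives were the pseudocount, the filter on low values, the scaling, the mice in the fit, a choroid plexus covariate, each mouse left out and, added later, a transcript length covariate and the pair of EtOH-UA mice left out.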

Additional observations from a re-analysis of the deposited data

Results flagged for a closer look

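On the log2(FPKM + 0.1) scale, within the groups of 7 and 9 mice, the 10 genes gave 30 groups of values, of which 3 had a mouse farther from the others than expected by Dixon's criterion (critical value 0.568 for 7 mice and 0.493 for 9), where 1.5 are expected by chance. Hsp90b1 in the EtOH-UA group had a gap of 0.655 of the group's range on this scale between its highest mouse, at 184.5 FPKM, and the next. Pdia4 in the same group had a gap of 0.602, with 21 FPKM in the highest mouse. In both it was the mouse with a summed FPKM of 404609. Xbp1 in the EtOH group had a gap of 0.717, with 26.78 FPKM in the mouse with a summed FPKM of 366930, the highest of its group. On the FPKM scale the gaps were 0.706, 0.657 and 0.738, and Hspa5 in the EtOH-UA group also passed, with 0.611, so that 4 groups of values did.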

How the results depend on the processing

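The 30 log2 fold changes of the 10 genes were recomputed under 33 alternative settings. None reached an adjusted p of 0.05, with a lowest value of 0.574, and 952 of 990 values kept their sign. Part of these 990 could not change, because a fold change is a difference of group means. It stays the same when a mouse outside the groups compared is left out. The same holds when only the filter differs or only the groups compared are fitted. No paired analysis was possible because the columns carry no replicate numbers. For EtOH against Ctrl the sign turned for Hspa5 (-0.017), Hsp90b1 (-0.014) and Pdia4 (-0.014) with the choroid plexus covariate, for Manf (0.019) with the transcript length covariate. With each mouse left out in turn, the range crossed 0 for Hspa5 (-0.005 to 0.041), Hsp90b1 (-0.011 to 0.047) and Calr (-0.011 to 0.054). For EtOH-UA against EtOH it turned for Hsp90b1 with quantile normalization (-0.027), for Hsp90b1 (-0.008), Manf (-0.004) and Calr (-0.011) with the transcript length covariate, and without the pair of EtOH-UA mice for Hspa5 (-0.012), Hsp90b1 (-0.047), Pdia4 (-0.028), Manf (-0.071) and Calr (-0.036). With each mouse left out, it crossed 0 for Hsp90b1 (-0.031 to 0.081) and Pdia4 (-0.007 to 0.118), both negative without the mouse with 404609. For EtOH-UA against Ctrl it turned for Ddit3 (-0.005) and Atf4 (-0.023) with the transcript length covariate, and without the pair for Hsp90b1 (-0.020), Ddit3 (-0.040), Atf4 (-0.080), Xbp1 (-0.007), Sdf2l1 (-0.065), Creld2 (-0.058), Manf (-0.154) and Calr (-0.012). With each mouse left out it crossed 0 for Ddit3 (-0.018 to 0.074), Atf4 (-0.034 to 0.062), Hsp90b1 (-0.004 to 0.107), Creld2 (-0.003 to 0.119) and Manf (-0.032 to 0.17). With each mouse left out in turn, the median log2 fold change of the 10 genes was between -0.105 and -0.031 for EtOH against Ctrl, 0.067 and 0.165 for EtOH-UA against EtOH and 0.008 and 0.126 for EtOH-UA against Ctrl, lowest in the last 2 without the mouse with 404609. The number of genes called over the whole table went from 0 to 1 without 1 of 3 mice (summed FPKM 358381, 336178 or 333801), and none of these calls was among the 10 genes. The cause of these changes was not tested, and counting error limits Sdf2l1 and Creld2 most.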
